A study of Rattus norvegicus with 12 samples.

Results

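Expression of 10 genes known chiefly from white blood cells was compared between F111 cells, a normal fibroblast line of the Fischer rat, and cells grown out of tumours. The members were Csf1r, Fcgr3a, Cd68, Mnda, Pou2af1, C1h16orf54, Laptm5, Lyz2, Fcer1g and Tyrobp, that is 10 of the 14217 genes measured by name. They were read by 14 of the 31042 probe sets tested. The genes were picked on the very contrast described here, so their differences are descriptions and carry no p. A gene was called raised where its brightest probe set (the one with the highest mean over the 6 arrays) was at least 2-fold higher under both deposited summaries, RMA and PLIER, with the 3 Tumor arrays above the 3 A16 arrays. By that rule 6 of the 10 were raised in Tumor cells and 4 were not. Over all measured genes 5.24% met the same rule, and nothing is read from the members' own share because that rule chose them.

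RNA was profiled on an Affymetrix rat array in 2 groups. The A16 group was F111 cells left attached to plastic for 16 h. The Tumor group was cells cultured from explants of tumours, which had grown in nude mice after F111 cells kept from attaching for 16 h (NA16) were injected under the skin. The labels give 3 months after injection for all Tumor records. Each group had biological replicates 1 and 2 and a technical replicate 2, which was averaged with replicate 1, so that n = 2 samples and 3 arrays per group. The labels give technical replicate 2 no biological replicate number, so its place with replicate 1 is an assumption. The labels do not say that the biological replicates were separate cultures or animals, so the spread between them may be technical. Nude mice lack T cells but keep macrophages and B cells. The probes were designed on rat genes, and how far RNA of mouse host cells is read by them was not tested. The 2 groups also differed in passage through an animal, explant culture and, by the study's methods, in the serum of the medium, and these cannot be told apart.

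Csf1r is the receptor for the growth factors Csf1 and Il34, and its signal keeps monocytes, macrophages and osteoclasts alive. Fcgr3a binds the constant part of antibodies and passes its signal through small partner chains, Fcer1g and, for related receptors, Tyrobp, which carry an activation motif for the kinase Syk. Cd68, Lyz2 and Laptm5 belong to the lysosomes and granules of phagocytes, Mnda is a nuclear HIN200 protein of myeloid cells, and Pou2af1 is the B cell coactivator of octamer-binding factors. Many myeloid genes share a promoter element for the factor PU.1, and therefore the bases before the start site are shown first.

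The 250 bases upstream of the start are given for 3 raised genes, Fcgr3a, Cd68 and Mnda, and for 1 gene that was not raised, Laptm5, to set members of both kinds side by side. They are RefSeq sequences on GRCr8, read 5′ to 3′ on the strand of the gene. Capitals mark GAGGAA, the core letters of a PU.1 site, or its reverse complement TTCCTC.
Fcgr3a (chr13:85782386-85782635, plus strand): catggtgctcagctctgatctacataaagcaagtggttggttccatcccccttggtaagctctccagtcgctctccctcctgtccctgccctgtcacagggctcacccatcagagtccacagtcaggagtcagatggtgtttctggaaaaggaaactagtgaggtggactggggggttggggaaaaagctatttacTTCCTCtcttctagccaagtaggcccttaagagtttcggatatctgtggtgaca
Cd68 (chr10:54882442-54882691, minus strand): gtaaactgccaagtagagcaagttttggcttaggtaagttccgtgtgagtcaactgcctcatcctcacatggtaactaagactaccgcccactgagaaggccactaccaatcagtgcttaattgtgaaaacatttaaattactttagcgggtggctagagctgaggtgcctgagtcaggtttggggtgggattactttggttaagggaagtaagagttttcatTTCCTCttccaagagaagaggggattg
Mnda (chr13:88567893-88568142, minus strand): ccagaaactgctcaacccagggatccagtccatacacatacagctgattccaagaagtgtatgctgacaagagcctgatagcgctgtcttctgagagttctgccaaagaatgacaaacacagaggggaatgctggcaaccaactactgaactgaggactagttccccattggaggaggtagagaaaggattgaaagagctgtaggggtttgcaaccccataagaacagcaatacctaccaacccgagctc
Laptm5 (chr5:148371630-148371879, plus strand): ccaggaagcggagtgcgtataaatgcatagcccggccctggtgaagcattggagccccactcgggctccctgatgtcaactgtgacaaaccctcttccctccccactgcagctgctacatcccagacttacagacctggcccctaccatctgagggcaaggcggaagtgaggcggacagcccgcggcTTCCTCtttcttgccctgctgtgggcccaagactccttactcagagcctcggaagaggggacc
The letters lay 54 bases before the start in Fcgr3a and 63 bases before it in Laptm5, and near the start in Cd68. They were not found in the window of Mnda.

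Promoters of 6 members were matched by gene identifier in the RefSeq table (Csf1r, Fcgr3a, Cd68, Mnda, Laptm5 and Lyz2). In the 300 bases around the start, GAGGAA was found on either strand in 5 of these 6, and in 27.6% of all 33469 promoters of that length. The members with the letters included Laptm5 and Lyz2, which were not raised, and the member without them, Mnda, was raised. The octamer ATGCAAAT, bound by the partners of Pou2af1, was in 0 of the 6 and in 1.78% of all promoters. The interferon response letters GAAANNGAA were in 3 (Csf1r, Fcgr3a and Lyz2) against 9.71% of all, the C/EBP letters TTGCNNAA in 1 (Lyz2) against 10.6%, the AP-1 letters TGANTCA in 1 (Cd68) against 7.33%, and the RUNX letters TGTGGT in 1 (Fcgr3a) against 17.3%. No GAGGAA match in these windows overlapped a match of another of the motifs. For Csf1r and Lyz2 the start used by the promoter table lay inside the span that the gene table gives for the gene, so their windows overlap it and their sequences are not shown. These are letter matches only and say nothing of binding.

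Values below are log2 RMA intensities, given for replicate 1, technical replicate 2 and replicate 2 in that order. A difference is Tumor minus A16 on the same log2 scale with the moderated standard error (SE) of limma over n = 2 samples per group. The median probe set of an array was at a log2 level of 6.62 to 6.64.

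**Figure D1:**
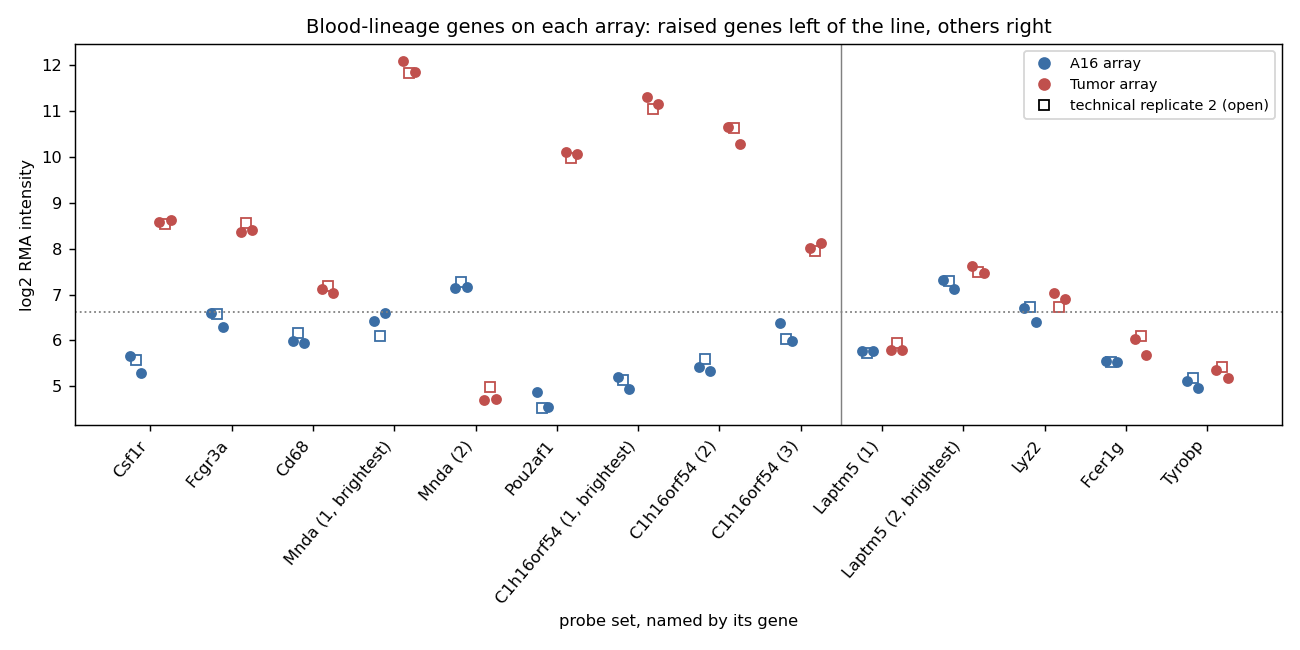
Each point is the log2 RMA intensity (vertical axis) of 1 probe set on 1 array, blue for A16 and red for Tumor, with technical replicate 2 as an open square, and the dotted line is the median of the arrays. The 6 raised genes stand left of the vertical line with Tumor arrays well above A16 arrays except for the second Mnda probe set, and the 4 other genes on the right have Tumor arrays only slightly above A16 arrays.

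Csf1r read 5.67, 5.58 and 5.29 on the A16 arrays and 8.59, 8.54 and 8.62 on the Tumor arrays. All A16 arrays were below the array median and all Tumor arrays above it, with no overlap. The difference was 3.14 ± 0.14 (SE), or 8.80-fold, and 4.20 (18.4-fold) under PLIER. Fcgr3a read 6.59, 6.58 and 6.30 in A16 and 8.37, 8.56 and 8.40 in Tumor, a difference of 1.99 ± 0.13 (3.97-fold, and 4.15-fold under PLIER). The A16 arrays were just below the array median, and the gap between the groups was wider than the spread within either. The gene table gives Fcgr3a also as a synonym of another receptor gene, Fcgr2a, which had no probe set under its own name, so that near-identical Fc receptors may share this signal.

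The other genes of the receptors' pathways were counted by the test over all probe sets (limma, Benjamini-Hochberg adjusted p under 0.05 and at least 2-fold), under which 5.45% of all genes were called higher and 5.44% lower in Tumor cells. These lists were put together with earlier results of the same arrays known. Among 22 genes of the Csf1r pathway 1 was called higher, none lower and 21 not called, with a median difference of 0.00 against 0.03 over all genes. At an unadjusted p under 0.05, with no fold limit, 6 of the 22 were higher and 3 lower, against 22.5% and 21.3% of all genes. The called gene was Runx1, a transcription factor of blood cell formation, which rose by 1.35 ± 0.14 (2.56-fold, adjusted p = 0.00077). Csf2, a related growth factor (0.36 ± 0.16), and its receptor chain Csf2ra (0.42 ± 0.16) were not called. Of the ligands of Csf1r, Il34 differed by -0.06 ± 0.11, and the brightest Csf1 probe set by -0.90 ± 0.15 (adjusted p = 0.0048), short of 2-fold. Under PLIER this Csf1 probe set was called lower (-1.24). The other 3 Csf1 probe sets gave 2.49 (adjusted p = 0.00017), -0.36 and -0.69 under RMA, so the direction of Csf1 depended on the probe set. The transcription factors Cebpb (0.82 ± 0.16, adjusted p = 0.010), Ets2 (0.92 ± 0.11, adjusted p = 0.0012) and Irf8 (-0.77 ± 0.11, adjusted p = 0.0026) differed by less than 2-fold, the first 2 upwards and Irf8 downwards, and Ets2 was called under PLIER (1.02).

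Of 21 genes for Fc receptors and the signalling that follows them, 1 was called higher, 1 lower and 19 were not called, with a median of 0.08. Blnk, the adaptor that couples Syk to its targets in B cells, read 5.93, 5.82 and 5.76 in A16 and 8.71, 8.83 and 8.77 in Tumor. It rose by 2.96 ± 0.11 (7.75-fold, adjusted p = 2.1e-05). Fcgrt, the receptor that recycles antibody inside cells, fell by 1.77 on the log2 scale (3.40-fold lower, adjusted p = 0.00013). The antibody receptors Fcgr1a (0.15 ± 0.11) and Fcgr2b (0.26 ± 0.11), the IgE receptor chain Fcer1a (0.20 ± 0.11) and the kinase Syk (0.10 ± 0.12) were not called, and all but Syk were below the array median in both groups.

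Cd68 read 5.99, 6.16 and 5.95 in A16 and 7.11, 7.19 and 7.03 in Tumor, with no overlap. The difference of 1.07 ± 0.12 (2.11-fold, and 2.83-fold under PLIER) was the smallest among the raised genes and lay just inside the 2-fold line. The next members outside it, Lyz2 and Fcer1g, each differed by 0.33. Of 24 other genes of lysosomes and phagocytic vesicles 2 were called higher, 1 lower and 21 were not called. The median of this list was 0.42 against 0.03 over all genes, and at an unadjusted p under 0.05 13 of the 24 were higher (54.2%) and 1 lower, against 22.5% and 21.3% of all genes. Cd9, a membrane tetraspanin, rose by 2.82 ± 0.12 (7.04-fold, adjusted p = 2.6e-05) and Glb1, the lysosomal beta-galactosidase, by 1.01 ± 0.13 (2.02-fold, adjusted p = 0.0016). Neu1, a lysosomal sialidase, fell by 1.21 on the log2 scale (2.31-fold lower, adjusted p = 0.012). Neither call for the enzymes was stable, since Glb1 was not called without A16 replicate 1 or Tumor replicate 2 and Neu1 not without A16 replicate 2 or Tumor replicate 1. The cathepsins Ctsa (0.06 ± 0.11) and Ctsb (-0.10 ± 0.11) were not called, and Ctsd (0.64 ± 0.11, adjusted p = 0.0064) and Ctsl (0.48 ± 0.11, adjusted p = 0.016) differed by less than 2-fold.

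Mnda had 2 probe sets that went opposite ways. The brighter one read 6.41, 6.09 and 6.59 in A16 and 12.07, 11.82 and 11.84 in Tumor, a difference of 5.47 ± 0.15 (44.4-fold, and 41.5-fold under PLIER). The dimmer one read 7.15, 7.28 and 7.16 in A16 and 4.72, 4.98 and 4.73 in Tumor, a difference of -2.40 ± 0.11 (5.27-fold lower, and 6.82-fold lower under PLIER). On the A16 arrays alone this second probe set was the brighter of the 2, so the choice of the first rested on the Tumor arrays. On neither probe set did the groups overlap, so the direction for Mnda rests on which probe set stands for the gene, and the mean of the 2 was 1.54. HIN200 genes are a family of close relatives, and a probe set may also read another member.

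The list for the HIN200 family and the inflammasome, the complex that activates interleukin-1, held 7 other measured genes. All were inflammasome genes and none was of the HIN200 family. Of the 7, 2 were called higher, none lower and 5 were not called (median 0.06). At an unadjusted p under 0.05, 2 of the 7 were higher and 1 lower. Casp1, the protease of the inflammasome, read 5.47, 5.82 and 5.78 in A16 and 9.08, 8.68 and 8.81 in Tumor. It rose by 3.13 ± 0.11 (8.75-fold, adjusted p = 1.9e-05). Pycard, the adaptor that recruits it, rose by 1.58 ± 0.14 (2.99-fold, adjusted p = 0.00039). Casp4 differed by -0.66 ± 0.11 (adjusted p = 0.0061), short of 2-fold, and Il1b by 0.06 ± 0.14.

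Pou2af1 read 4.87, 4.53 and 4.54 in A16, among the dimmest probe sets of each array, and 10.10, 9.96 and 10.05 in Tumor. The groups stood 5.42 ± 0.12 apart (42.8-fold, and 43.7-fold under PLIER), far more than the spread within them. Its partner factor Pou2f1 differed by -0.01 ± 0.25, and Pou2f2 by 0.62 ± 0.15 (adjusted p = 0.024), short of 2-fold. Among 20 other B lymphocyte genes 2 were called higher, 2 lower and 16 not called (median -0.02). Under PLIER 4 were called higher, Prdm1 (1.95) and Cr2 (1.24) besides the 2 called under RMA, and 2 lower. Fcrla, an Fc receptor-like protein of germinal centre B cells, read 8.54, 8.39 and 8.35 in A16 and 12.97, 12.94 and 13.22 in Tumor. It rose by 4.68 ± 0.13 (25.7-fold, adjusted p = 1.2e-05), while its other probe set gave -0.16. Bcl6, a repressor needed in germinal centres, rose by 1.51 ± 0.11 (2.84-fold, adjusted p = 0.0002). Tcf3 and Ebf1, transcription factors of early B cells, fell by 1.83 (adjusted p = 0.00061) and by 1.10 (adjusted p = 0.0045). Ebf1 was not called without A16 replicate 2 or with the mean of all its probe sets. The kinase Blk differed by -0.06 ± 0.11. The B cell surface genes Ms4a1 (0.18 ± 0.13) and Cd79b (0.18 ± 0.12) were not called and were below the array median on all 6 arrays.

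C1h16orf54, a gene of little known function, was raised on all 3 of its probe sets. The brightest read 5.21, 5.14 and 4.94 in A16 and 11.30, 11.04 and 11.15 in Tumor, a difference of 6.10 ± 0.12 (68.6-fold, and 129-fold under PLIER). The second read 5.42, 5.60 and 5.35 in A16 and 10.64, 10.63 and 10.28 in Tumor (5.03 ± 0.15, 32.7-fold), and the third 6.39, 6.04 and 5.99 in A16 and 8.01, 7.95 and 8.12 in Tumor (1.95 ± 0.13, 3.86-fold). The groups did not overlap on any of them, but the size of the difference varied with the probe set. On the A16 arrays alone the third was the brightest, at a mean of 6.10, and the first the dimmest, at 5.06. The choice of the first to stand for the gene thus rested on the Tumor arrays.

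The other 4 members differed by less than 2-fold under both RMA and PLIER. Lyz2, the lysozyme of macrophages, read 6.71, 6.74 and 6.41 in A16 and 7.03, 6.74 and 6.91 in Tumor (0.33 ± 0.14, 1.26-fold). Fcer1g read 5.56, 5.53 and 5.54 in A16 and 6.04, 6.09 and 5.69 in Tumor (0.33 ± 0.15, 1.26-fold). Tyrobp read 5.11, 5.18 and 4.97 in A16 and 5.36, 5.43 and 5.19 in Tumor (0.24 ± 0.13, 1.18-fold).
Fcer1g and Tyrobp, the signalling chains of Fc and related receptors, were thus below the array median on every array of both groups, also where Fcgr3a was raised. The brighter Laptm5 probe set read 7.32, 7.28 and 7.13 in A16 and 7.61, 7.49 and 7.47 in Tumor (0.30 ± 0.12, 1.23-fold), and the other 5.78, 5.74 and 5.78 against 5.79, 5.95 and 5.79 (0.06 ± 0.11). The Tumor arrays of these 4 genes still lay above their A16 arrays under RMA, as did those of 28.6% of all genes, and for Lyz2 and Tyrobp the gap was under 0.01. Under PLIER the brighter Laptm5 probe set differed by 0.69 (1.62-fold), and Lyz2, Fcer1g and Tyrobp by 0.30 to 0.32. There the groups overlapped for Tyrobp and for the dimmer Laptm5 probe set.

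**Figure D2:**
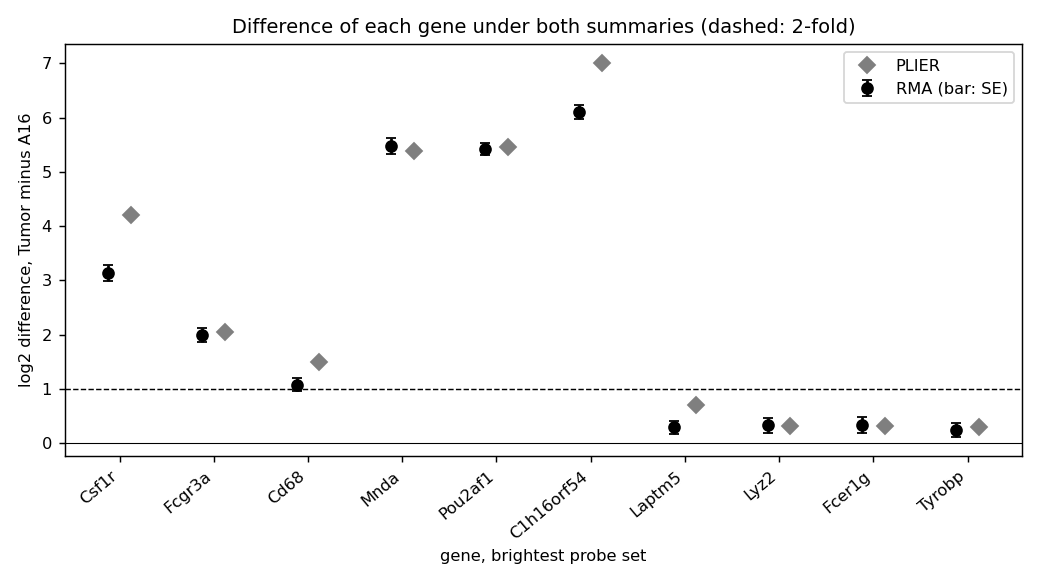
Log2 difference, Tumor minus A16, of the brightest probe set of each gene (vertical axis) under RMA, with its SE as a bar, and under PLIER as a grey diamond, with the dashed line at 2-fold. The 6 raised genes run from 1.07 for Cd68 to 6.10 for C1h16orf54 under RMA, and the other 4 from 0.24 to 0.33.

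Counted once each, the 10 lists for blood cells, the Csf1r and Fc receptor pathways, osteoclasts and the inflammasome held 186 measured genes besides the members. Of these 11 were called higher (5.91%, against 5.45% of all genes), 8 lower (4.30%, against 5.44%) and 167 were not called, with a median of 0.04 against 0.03. Under PLIER 19 were called higher and 9 lower, and over all genes 7.2% were called higher and 6.68% lower. In a bulk sample fewer cells of a type and less RNA per cell cannot be told apart.

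Among 24 genes of most white blood cells 2 were called higher and 2 lower. Evi2a, a membrane protein, read 5.07, 4.62 and 4.55 in A16 and 9.01, 8.96 and 8.93 in Tumor, a rise of 4.26 ± 0.14 (19.2-fold, adjusted p = 1.4e-05). Nckap1l, the blood cell subunit of the actin-regulating WAVE complex, rose by 1.86 ± 0.17 (3.62-fold, adjusted p = 0.00045). Lsp1, an actin-binding protein, fell by 2.12 (4.34-fold lower, adjusted p = 0.00011), and Srgn, the proteoglycan core of granules, fell by 2.05 (4.16-fold lower, adjusted p = 0.0014).

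Of 28 monocyte and macrophage genes 3 were called higher, none lower and 25 were not called (median 0.05). At an unadjusted p under 0.05, 4 of the 28 were higher (14.3%) and 1 lower. Itgax, the integrin chain of dendritic cells and macrophages, read 7.11, 7.07 and 7.04 in A16 and 8.78, 8.62 and 8.68 in Tumor, and rose by 1.62 ± 0.11 (3.08-fold, adjusted p = 0.00014). Ms4a7, a membrane protein of macrophages, rose by 1.77 ± 0.12 (3.42-fold, adjusted p = 0.00015) and Cd80, a costimulatory ligand for T cells, by 1.55 ± 0.15 (2.93-fold, adjusted p = 0.00056).

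Of 25 T and NK lymphocyte genes none was called higher and 1 lower, Cd28, which fell by 1.03 (adjusted p = 0.00079). Of 21 granulocyte and mast cell genes none was called higher and 1 lower, the transcription factor Gata2, which fell by 1.49 (adjusted p = 0.0010) under RMA. Gata2 was not called under PLIER (-0.98) or with the mean of all its probe sets. Of 11 osteoclast genes none was called higher and 1 lower, the chloride transporter Clcn7, which fell by 1.29 (adjusted p = 0.0059) and was not called without A16 replicate 2. Under RMA limma called none of 16 red cell and platelet genes. Under PLIER it called Itga2b (1.24, adjusted p = 0.0012) and Vwf (1.05, adjusted p = 0.0033) higher. At an unadjusted p under 0.05, 2 of the 25 T and NK genes, 1 of the 21 granulocyte genes, 2 of the 16 red cell and platelet genes and 2 of the 11 osteoclast genes were higher, each a smaller share than the 22.5% of all genes. The T cell receptor chains Cd3d, Cd3e, Cd3g and Cd247 differed by 0.10 to 0.31, and the neutrophil genes S100a8, S100a9, Camp and Csf3r by -0.09 to 0.14. The red cell genes Hbb, Alas2, Epor and Gata1 differed by -0.12 to 0.12, and the osteoclast genes Acp5, Ctsk, Calcr and Nfatc1 by -0.26 to 0.15. None of these 16 genes was called.

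**Figure D3:**
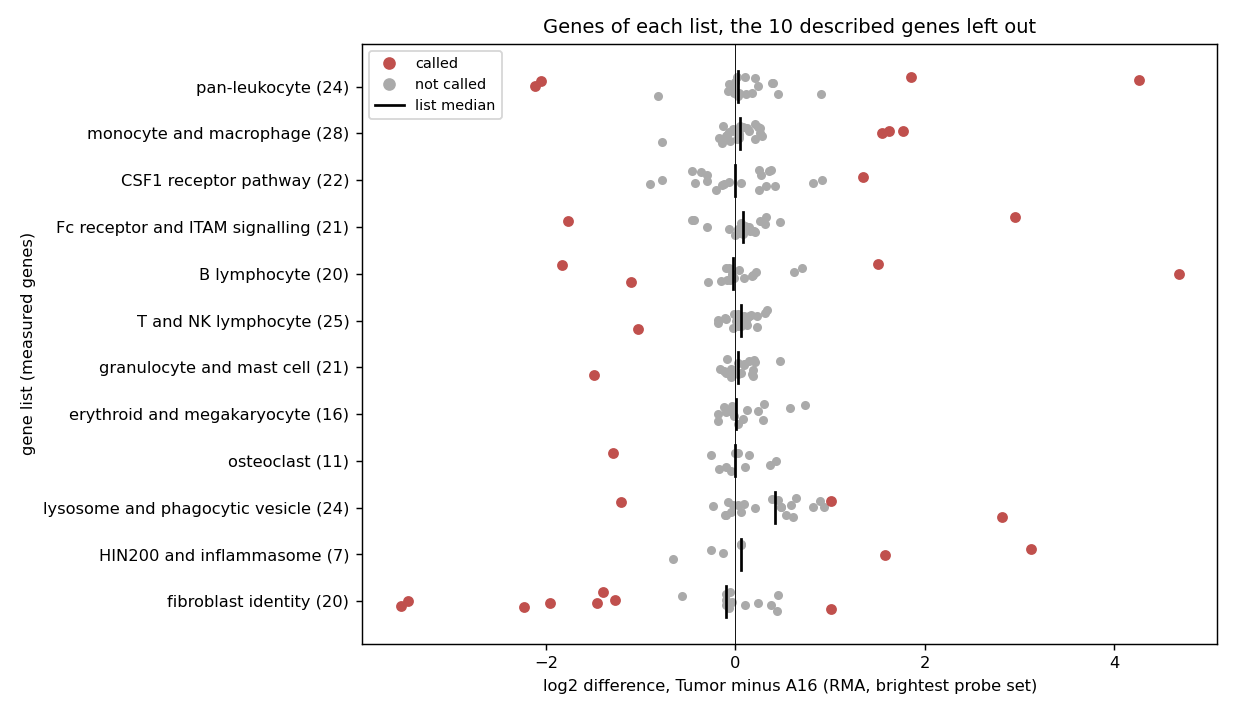
Each point is the log2 difference, Tumor minus A16, of 1 measured gene (horizontal axis) of the list named at the left, red where called and grey where not, with the list median as a black bar and the number of measured genes in brackets. Medians lie between -0.10 and 0.08 for every list except the lysosome list at 0.42, and 7 of 20 fibroblast genes are called lower.

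None of the markers that define macrophages was called under RMA. Of 12 such markers 11 were measured and limma called 0 of them, with 1 higher at an unadjusted p under 0.05 and a range of differences from -0.17 to 0.28. Their summed signal was 10.46 to 10.60 on the A16 arrays and 10.39 to 10.47 on the Tumor arrays, but 62.1% to 66.4% of it was Cd14. Without Cd14 the sum of the other 10 was 8.89 to 9.02 in A16 and 8.93 to 8.99 in Tumor, so that the groups overlapped. Of the 11, 9 were below the array median on all 6 arrays, among them Adgre1, Cd163, C1qa, Itgam and Aif1, while Cd14 was above it in both groups (9.93 in A16 and 9.76 in Tumor). Under PLIER Ctss was called higher (1.17). The pan-leukocyte markers Ptprc (-0.07 ± 0.11), Lcp1 (-0.81 ± 0.12), Coro1a (-0.01 ± 0.12) and Cd53 (0.38 ± 0.15) were below the array median on all arrays, and limma called 0 of these 4, with 1 higher and 1 lower at an unadjusted p under 0.05. Their summed signal was 7.51 to 7.64 in A16 and 7.27 to 7.41 in Tumor. Under PLIER Cd53 was called higher (1.91). The defining markers of B cells (2 measured), T cells (4) and granulocytes (2) were also below the array median on every array. Hbb, a globin of red cells, was above it, with 7.29 in A16 and 7.22 in Tumor, and Pf4 of platelets was below.

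The fibroblast label was checked in the same way. All 7 markers chosen to define fibroblasts were above the array median on all 6 arrays, and 3 of them fell, the collagen chains Col1a1 (11.0-fold lower, adjusted p = 8.8e-05) and Col1a2 (2.63-fold lower, adjusted p = 0.00027) and the surface protein Thy1 (3.87-fold lower, adjusted p = 6.9e-05). Over the 20 genes of the fibroblast list, which holds these 7, 1 was called higher, 7 lower and 12 not called. In that list Fap, Dcn, Lum and Postn were below the array median in both groups. The lysyl oxidase Lox fell by 3.53 (11.6-fold lower, adjusted p = 1.4e-05) and the collagen chaperone Serpinh1 by 2.23 (4.69-fold lower, adjusted p = 0.00055), whereas Col3a1 (-0.06 ± 0.24) and Pdgfra (-0.06 ± 0.12) were not called.

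**Figure D4:**
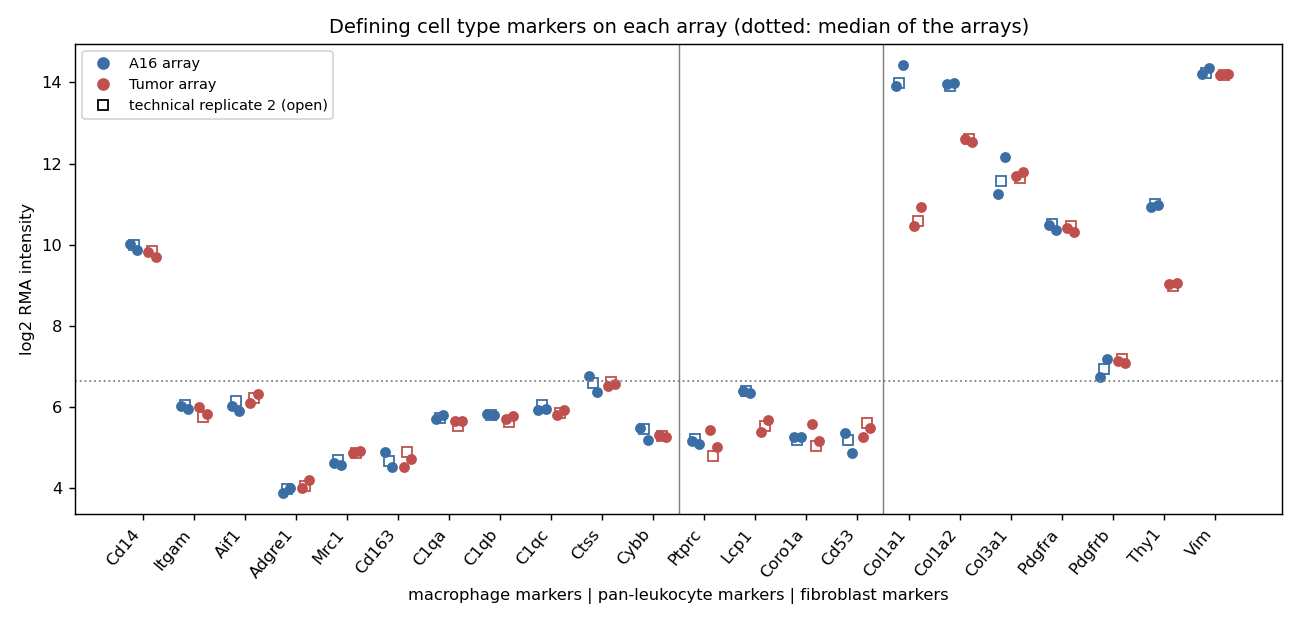
Log2 RMA intensity (vertical axis) of the defining markers of macrophages, white blood cells and fibroblasts on each array, blue for A16 and red for Tumor, with technical replicate 2 as an open square and the array median as a dotted line. Macrophage and pan-leukocyte markers lie mostly below the line at like levels in both groups with Cd14 above it, and all 7 fibroblast markers lie above it.

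The measured genes nearest in order to the members on the chromosomes were not used by the rule. Nearest in order need not be close, and Cep170 by Mnda was 2634 kilobases (kb) away. Taking 5 measured genes on each side in the order of the GRCr8 gene table, 60 genes flanked the 6 raised members. Of these 6 were called higher, 1 lower and 53 not, with a median of 0.08, and 10% called higher against 5.45% of all genes. Around the other 4 members 1 of 40 was called higher and 1 lower, with a median of -0.02. The difference between these shares was not tested.

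Spn, 2 genes from C1h16orf54, encodes leukosialin, a sialic acid-rich surface protein of white blood cells. It was 5.91 in A16 and 9.36 in Tumor, a rise of 3.45 ± 0.14 (10.9-fold, adjusted p = 2.6e-05). Qprt, the gene between them and an enzyme of NAD synthesis, rose by 1.54 ± 0.13 (2.91-fold, adjusted p = 0.00041), though not with the mean of all its probe sets (0.88). Fcrla lay 2 genes from Fcgr3a, with Fcgr2b between them not called, and Olfml2b, 5 genes away, rose by 1.06 ± 0.18 (adjusted p = 0.0061). Olfml2b was not called without A16 replicate 2 or with the mean of all its probe sets. Nor was it with technical replicate 2 left out (0.96) or counted as a replicate (0.97). Rgs7 (2.65 ± 0.13, adjusted p = 4.3e-05), a regulator of G protein signalling, and the opsin Opn3 (2.74 ± 0.17, adjusted p = 0.00011) rose on one side of Mnda. They were far from it, Rgs7 at 944 kb and Opn3 at 1554 kb. Beside Cd68, Fxr2 fell by 1.14 (adjusted p = 0.0098) and was not called without A16 replicate 2 or Tumor replicate 1.

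None of the 10 measured neighbours of Csf1r was called, among them Pdgfrb, the next gene and a related receptor (0.10 ± 0.14), and Hmgxb3 on the other side (-0.09 ± 0.12). None of the 10 around Pou2af1 was called, although its nearest, Pou2af3, differed by 0.80 ± 0.14 (adjusted p = 0.0060), short of 2-fold. Among the neighbours of Laptm5, Epb41, 1000 kb away, rose by 1.06 ± 0.11 (adjusted p = 0.00077). Zcchc17, 387 kb away, fell by 1.09 (adjusted p = 0.00093). Hcst, the signalling chain gene beside Tyrobp, differed by 0.21 ± 0.12 and was not called.

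**Figure D5:**
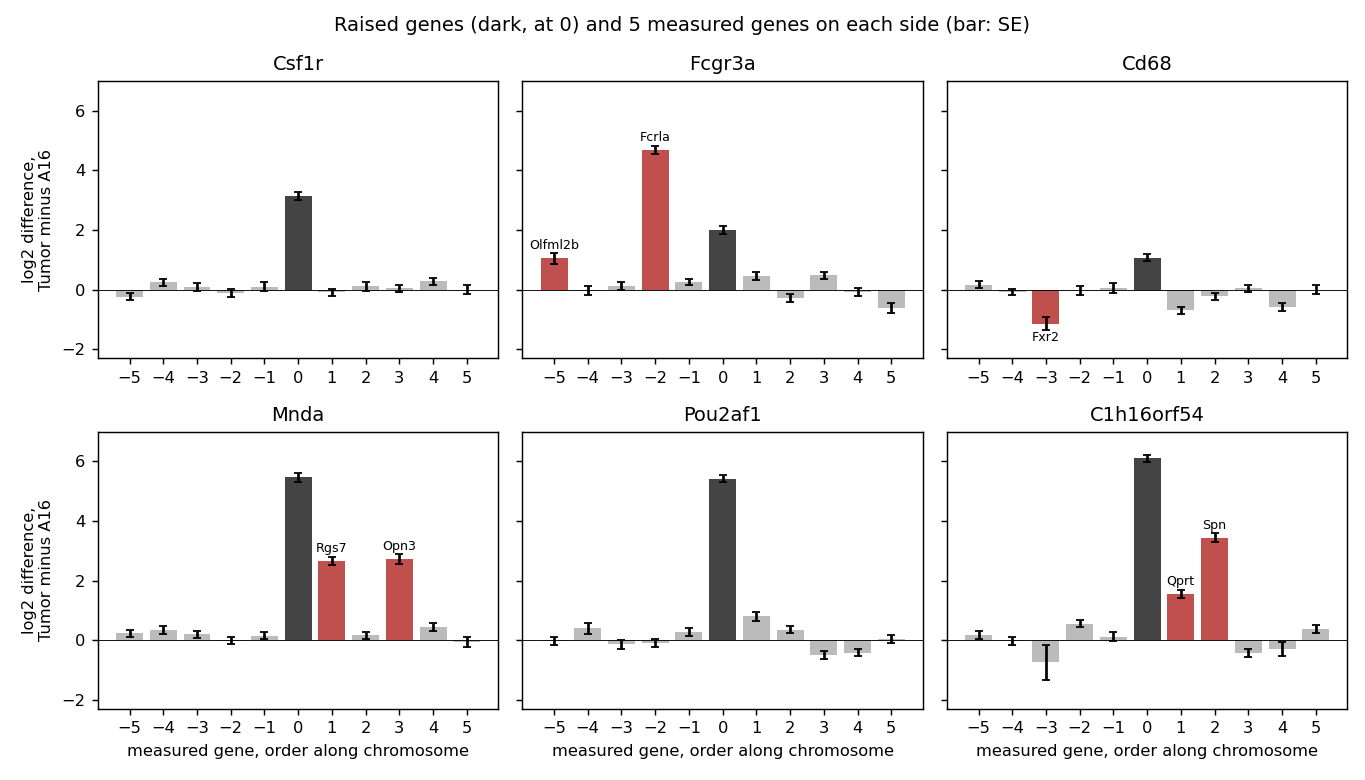
Log2 difference, Tumor minus A16, with its SE (vertical axis), for each raised gene in dark grey at position 0 and the 5 measured genes on each side in chromosome order (horizontal axis), red where called. Csf1r and Pou2af1 have no called neighbour, and Spn at 3.45 and Fcrla at 4.68 are the highest neighbours of C1h16orf54 and Fcgr3a.

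For each raised gene the most similar patterns over the 6 arrays were found as the smallest root mean square distance of log2 values after each gene's A16 mean was taken off. With 2 groups this picks mainly genes with a like difference. Mnda and Pou2af1 were each other's nearest gene (distance 0.190). Next to Mnda came Xdh (0.268) and Clmp (0.270), next to Pou2af1 Adh1c (0.242) and Xdh (0.253), and next to C1h16orf54 Spp1 (0.246), Xdh (0.399) and Mnda (0.484). The nearest genes to Csf1r were C1qtnf1 (0.0791), Ankh (0.0811) and Gja4 (0.0900), those to Fcgr3a were Vopp1 (0.0540), Slc18a2 (0.0657) and Mtss1 (0.0663), and those to Cd68 were Wbp1 (0.0462), Zbtb43 (0.0513) and Pan3 (0.0519). None of these, apart from Mnda and Pou2af1, is on the lists of blood cell genes.

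The arrays of the 2 groups also differed in their control probes. The poly-A spikes, added to the RNA before labelling, averaged a log2 level of 7.85 in A16 and 4.83 in Tumor, and the hybridisation spikes 10.22 and 11.23. The 3′ probe set of beta-actin was above its 5′ probe set by 0.68 in A16 and by 2.32 in Tumor, and that of Gapdh by -0.03 and 0.28. No array of one group overlapped with the other in these 4 measures, so labelling and group cannot be told apart. Across all probe sets the biological replicates correlated at r = 0.991 in A16 and 0.995 in Tumor. Replicate 1 and technical replicate 2 correlated at 0.997 in both groups, and arrays of different groups between 0.933 and 0.949. The number of arrays limits the precision.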

How the data were processed

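RNA of 4 rat samples was hybridised to 6 Affymetrix rat arrays, 2 of them technical replicates, and each array was summarised by the authors with RMA and with PLIER (versions not given in the sources used here), which makes 12 sample records. The authors deposited linear intensity values, not log values as had been planned for, and log2 was taken here. PLIER values do not go below 16. Of 31099 probe sets 57 controls were left out, and 31042 were tested. Of these, 20826 had 1 gene symbol in the platform annotation, 436 several and 9780 none, and 20758 of the first were found by gene identifier in the GRCr8 table of RefSeq. Technical replicate 2 was assumed to belong to replicate 1 and was averaged with it (n = 2 per group). Differences, SE and p-values came from limma 3.58.1 in R 4.3.3, two-sided with Benjamini-Hochberg adjustment, and a gene was called at an adjusted p under 0.05 and at least 2-fold. The brightest probe set stood for a gene. The test was checked on simulated data. Named genes were the members with all probe sets, up to 4 called genes and the first 4 measured genes of each list, the 3 nearest patterns, called neighbours and the cell type markers. Cebpb, Ets2, Irf8, Pou2f1, Pou2f2, Syk and the neighbours that were not called (Pdgfrb, Hmgxb3, Pou2af3, Hcst and Fcgr2b) fall outside this rule and were chosen after their values were seen, as were the genes below the median in the fibroblast list and those called only under PLIER. The members and lists were chosen with earlier results of these data known. No column of per-sample values was left unused. The alternatives were PLIER and its offset, the mean of a gene's probe sets, technical replicate 2 left out or counted as a replicate, leaving out each replicate, quantile normalisation, a filter on dim probe sets, a replicate block and the methods' t-test.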

Additional observations from a re-analysis of the deposited data

How the results depend on the processing

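Each of the 10 genes kept its sign in all 11 alternatives, and in the 7 alternatives that leave out no biological replicate 55 of 70 values stayed within 1 SD between replicates of the reported one. With 2 replicates, leaving one out cannot move a value further than that SD, so those values are given only as part of the ranges. Part of the 55 was also fixed in advance. In this balanced design a replicate block cannot change a difference. The mean of a gene's probe sets cannot either where the gene has only 1. A filter on dim probe sets cannot change the difference of a gene that it keeps, and it is not among the 11. The number at least 2-fold higher was 6 throughout, except 7 with a PLIER offset of 1, where Laptm5 reached 1.09. Over the alternatives Csf1r ranged from 2.97 to 5.17, Cd68 from 1.01 to 1.93, Mnda from 1.54 (mean of its probe sets) to 5.69 and C1h16orf54 from 4.36 to 8.37. No alternative took the dimmer Mnda probe set alone, which was lower in Tumor.

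Higher calls in the lists for blood cells and their pathways counted together, 11 as reported, were 19 under PLIER and 28 with a PLIER offset of 1. Higher calls in the lysosome list, 2 as reported, were 4 under PLIER, 4 with the offset of 1 and 1 with technical replicate 2 as its own replicate. The 1 lower call of that list (Neu1) was 0 with the mean of all probe sets, and 0 to 1 when each replicate was left out in turn, 0 without A16 replicate 2 and without Tumor replicate 1. Lower calls among neighbours, 2 as reported, were 1 to 3 when each replicate was left out, 1 without A16 replicate 2 and without Tumor replicate 1 and 3 without A16 replicate 1. Over all probe sets 1709 higher and 1985 lower calls became 3113 higher with a PLIER offset of 1. They became 1651 to 1830 higher and 1684 to 2502 lower with 1 replicate left out. The methods' t-test called 1607 higher and 1493 lower unadjusted, but 4 higher and 8 lower after Benjamini-Hochberg adjustment.

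Replicate numbers are shared between the groups, but the labels do not say whether same-numbered samples were paired. Across all probe sets the same-numbered samples deviated together at r = 0.121, over 2 pairs. With 2 samples per group this value cannot decide whether they were paired. With the replicate block 1715 higher and 2035 lower calls were made.

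With 2 samples per group the SE of a single probe set rests mainly on the spread pooled over all probe sets. Leaving out a replicate puts 1 sample in a group, which is then assumed to vary like the other. The cause of these changes was not tested. Signal close to the background limits what can be said of the dimmest genes, such as Fcer1g and Tyrobp.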
